A study of Xenopus tropicalis with 6 samples.

Results

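The genes described here are the SoxB1 transcription factors *sox1*, *sox2* and *sox3* and the early neural plate factors *sox11*, *sox21*, *zic2*, *gmnn* (geminin) and *foxd4l1.1*. They were taken by exact symbol from a list of 9 names, of which 8 occur among the 23634 genes of the table. The other name, geminin, is a synonym of *gmnn* in RefSeq, so no factor on the list is missing. All 8 had a group mean of at least 1 TPM (transcript abundance scaled by transcript length, with an equal total for each sample) and were among the 13382 genes tested. Expression was measured by RNA-seq of poly(A) RNA from whole *Xenopus tropicalis* embryos of the Nigerian strain at Stage 16, the mid neurula. In 3 samples the embryos had received 10 ng of splice-blocking morpholinos against *n1-src*, the neural splice form of the tyrosine kinase gene *src* (n1-src morphants), and in 3 samples 10 ng of a standard control morpholino (control embryos). The groups share replicate numbers 1 to 3, and samples with the same number, here called a set, are compared with each other. A morpholino injected into the embryo acts wherever the injected cells end up, and a whole embryo holds every tissue, so a TPM value averages the neural plate with epidermis, mesoderm and endoderm.

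SoxB1 proteins bind DNA through an HMG box and are the classic pan-neural factors of vertebrate embryos, where they keep cells as dividing neural progenitors and hold back neuronal differentiation. Their relative Sox21, of the SoxB2 group, binds similar sites as a repressor, and Sox11, of the SoxC group, acts in progenitors that are turning into neurons. In *Xenopus*, Foxd4l1.1 (also called FoxD5) acts early in the neural ectoderm, keeps it immature and induces *gmnn*, *zic2* and *sox11*. Zic2 is a zinc finger factor of the neural plate and its borders, and Geminin blocks relicensing of DNA replication by binding Cdt1 and also restrains neural commitment through chromatin regulators.

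Of the 8 factors, 1 changed past the threshold. Expression of *sox1* fell in n1-src morphants to 56.2% of the control mean, whereas the other SoxB1 genes moved much less. The level of *sox3* was 85.3% and that of *sox2* 109.0% of the control mean, and neither passed the test. The factors *zic2* and *foxd4l1.1* were at 117.9% and 114.2% of the control mean and *gmnn* at 102.1%, also without passing it. In the fit over all genes (limma with the set as a block, Benjamini-Hochberg adjusted p at most 0.05), 1 of 8 factors was called lower, against 5.87% of all genes tested, and 0 were called higher, against 2.62%. At an unadjusted p under 0.05 from limma, 3 factors were lower and 2 higher, against 23.4% and 9.76% of all genes. The median log2 fold change of the 8 factors was -0.050, with 4 positive and 4 negative values, beside -0.068 for all genes tested.

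**Figure D1:**
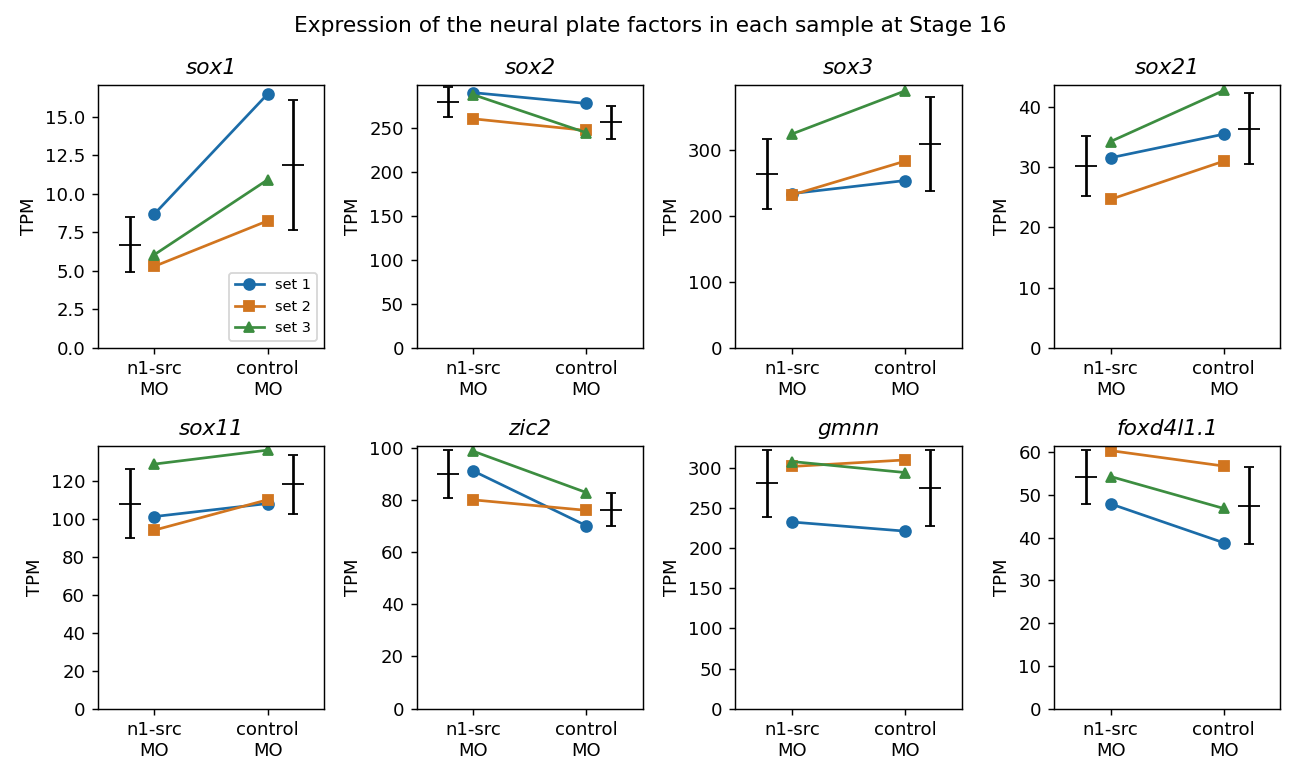
TPM (linear axes from 0) of each factor in the n1-src morpholino (MO) samples, left, and control MO samples, right, of each panel. Lines join samples of a set, and black bars give the group mean ± SD (n = 3). In *sox1* every line is lower on the n1-src side, yet the groups overlap, since the morphant sample of set 1 (8.69 TPM) lies above the control sample of set 2 (8.24 TPM).

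The values of *src* itself, summed over its splice forms, gave 15.6, 17.3 and 34.6 TPM in n1-src morphants and 18.7, 25.8 and 49.2 TPM in control embryos of sets 1, 2 and 3. It was lower in each set, with a log2 fold change of -0.44 (SE 0.084, limma adjusted p = 0.0398, and 0.0646 after median scaling of the samples). These values do not separate *n1-src* from the other splice forms, so they check the labels only in part. The loading control gene *rpl8* gave 1993 ± 72.0 TPM in morphants and 1895 ± 174.0 TPM in control embryos (SD, n = 3 each). In the morphant sample of set 1, the genes LOC108645507 and LOC100335111 held 4.89% of all TPM, against 0.193 to 0.525% in the other samples, which lowers every other value there slightly. Markers of non-neural ectoderm, muscle, notochord and endoderm were above 0 in all 6 samples for every listed gene that the table holds (20, 12, 8 and 13 genes).

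Expression of *sox1*, which in vertebrates marks committed neural progenitors, was low. It was 8.69, 5.29 and 6.05 TPM in the n1-src morphants of sets 1, 2 and 3, against 16.5, 8.24 and 10.9 TPM in their control siblings. Every morphant sample was below the control of its own set, and set 1 was high in both groups. The group means were 6.68 ± 1.78 TPM and 11.9 ± 4.20 TPM (SD, n = 3 each). On the log2(TPM + 0.5) scale, which understates changes of low genes, *sox1* fell by 0.89, 0.59 and 0.80 in the 3 sets, and the fitted log2 fold change was -0.76 (SE 0.092, 95% interval -0.99 to -0.53, limma adjusted p = 0.0209). By p-value *sox1* stood at place 125 of the 13382 genes. The call rests on pairing the samples, since without the set as a block the SE was 0.29 and the limma adjusted p 0.548. It was also lost without set 3 (limma adjusted p = 0.0651) and without a filter on low TPM (limma adjusted p = 0.0715). In whole embryos, fewer *sox1*-expressing cells and less *sox1* RNA per cell cannot be told apart.

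The level of *sox3*, a SoxB1 gene of the early neural ectoderm, was 234.0, 231.9 and 324.4 TPM in n1-src morphants of sets 1, 2 and 3. In control embryos it was 253.8, 283.3 and 389.9 TPM. The morphant sample was below its control in each set, but set 3 was high in both groups and the ranges overlapped widely. The log2 fold change was -0.22 (SE 0.061, 95% interval -0.37 to -0.074, limma adjusted p = 0.0717), which did not pass. Without set 1 it did, at -0.28 (limma adjusted p = 0.0476), but not without set 2 or set 3 (limma adjusted p = 0.321 and 0.213). After median scaling the value was -0.13 (limma adjusted p = 0.228). Without the set as a block the limma adjusted p was 0.809.

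For *sox2*, the SoxB1 gene best known for keeping stem cells and neural progenitors multipotent, the order was the opposite. Morphants had 289.8, 260.1 and 287.5 TPM, against 277.5, 246.9 and 244.2 TPM in the control embryos of the same sets. The morphant sample was above its control in each set, by 0.062 and 0.075 on the log2 scale in sets 1 and 2 and by 0.23 in set 3. The fitted log2 fold change was 0.12 (SE 0.061, 95% interval -0.027 to 0.27, limma adjusted p = 0.215). Of the 8 factors *sox2* varied least between control samples, with the highest 1.14 times the lowest, whereas *sox1* varied 2.00-fold.

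**Figure D2:**
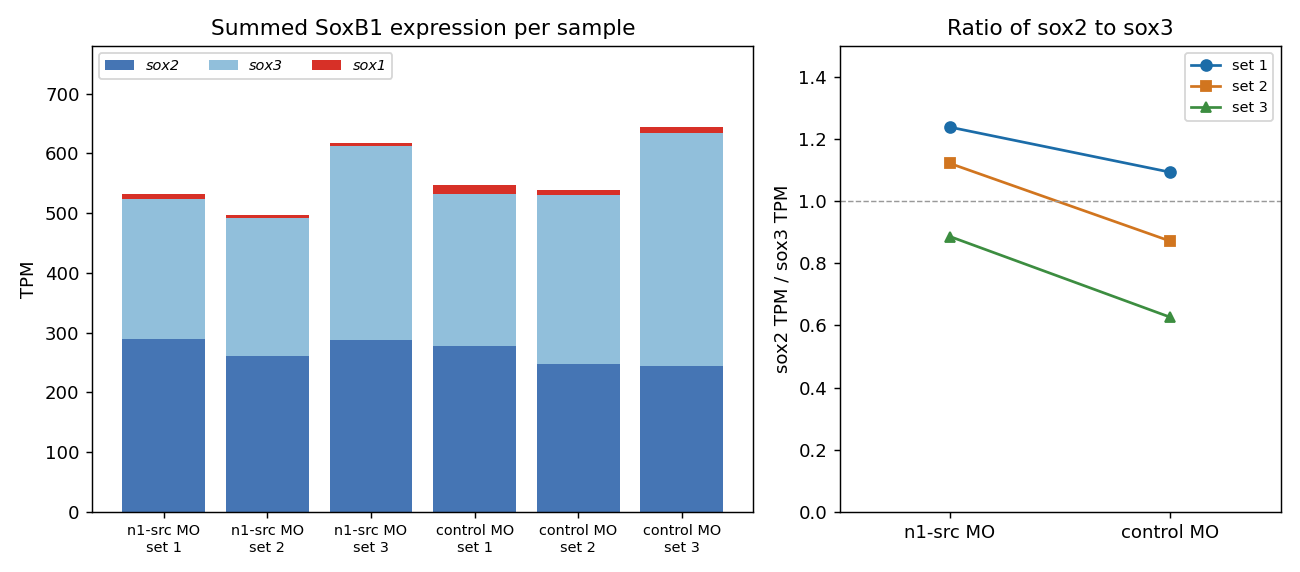
Left, stacked bars of the TPM of *sox2*, *sox3* and *sox1* in each sample (linear axis from 0). Right, the ratio of *sox2* to *sox3* TPM, with a line for each set and a dashed line at 1. The thin *sox1* band holds 0.979 to 3.01% of the sum, and the ratio is higher on the n1-src side in every set.

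Added together, the SoxB1 genes gave 532.5, 497.3 and 618.0 TPM in morphants and 547.8, 538.4 and 645.0 TPM in control embryos of sets 1, 2 and 3. The difference was -0.041, -0.11 and -0.062 on the log2 scale, beside a median of -0.068 for all genes tested. In set 1, LOC108645507 and LOC100335111 held 4.89% of TPM in the morphant sample and 0.325% in the control. This lowers the morphant sum by more than the -0.041 seen in set 1, so the sign there depends on these genes. The mixture of the SoxB1 genes differed more than their sum. The ratio of *sox2* to *sox3* was 1.24, 1.12 and 0.886 in morphants and 1.09, 0.871 and 0.626 in control embryos. Thus *sox2* exceeded *sox3* in 2 of 3 morphant samples and in 1 of 3 control samples. The share of *sox1* in the sum was 1.63, 1.06 and 0.979% in morphants, against 3.01, 1.53 and 1.69% in control embryos.

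The changes of the SoxB1 genes were set against each other within sets, as 3 pairs. The change of *sox1* minus that of *sox2* was -0.95, -0.67 and -1.04 on the log2 scale in sets 1, 2 and 3, a mean of -0.88 ± 0.19 (SD, n = 3 sets). For *sox1* minus *sox3* the mean was -0.54 ± 0.23, and for *sox2* minus *sox3* it was 0.35 ± 0.16. Each difference had the same sign in every set and was larger than its SD. An exact sign-flip test over 3 sets cannot give a two-sided p below 0.25, which is what each pair gave (0.25 after adjustment over the 3 pairs), so this test could not have passed the threshold.

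The SoxB2 gene *sox21*, whose product opposes SoxB1 activators, was at 31.6, 24.7 and 34.3 TPM in morphants and at 35.5, 31.0 and 42.8 TPM in control embryos. It was lower in each set (log2 fold change -0.27, SE 0.067, 95% interval -0.43 to -0.10), close to but not past the threshold (limma adjusted p = 0.0610). After median scaling the value was -0.17 (limma adjusted p = 0.147). The limma adjusted p was 0.239 without set 2, 0.182 without set 3 and 0.732 without the set as a block. The ratio of *sox2* to *sox21* was 9.18, 10.5 and 8.39 in morphants and 7.82, 7.96 and 5.71 in control embryos, with no overlap between the groups. This ratio was picked after the values were seen and was not tested. Expression of *sox11* was 101.2, 94.0 and 128.8 TPM in morphants and 108.1, 110.1 and 136.2 TPM in control embryos. It too was below its control in each set, with a fitted log2 fold change of -0.13 (SE 0.060, 95% interval -0.28 to 0.014, limma adjusted p = 0.181). After median scaling the value of *sox11* was -0.037 (limma adjusted p = 0.727). Without the set as a block its limma adjusted p was 0.866.

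The values of *zic2* and *foxd4l1.1* lay on the other side of 0, though neither passed the test. Expression of *zic2* was 91.2, 80.1 and 98.8 TPM in morphants, against 70.2, 76.1 and 82.9 TPM in control embryos of the same sets. It was higher in each set, most in set 1 (0.38) and least in set 2 (0.074). The log2 fold change was 0.23 (SE 0.075, 95% interval 0.050 to 0.42, limma adjusted p = 0.0961). After median scaling the value of *zic2* was 0.33 (limma adjusted p = 0.0624). Without the set as a block its limma adjusted p was 0.662. For *foxd4l1.1* the values were 47.9, 60.4 and 54.3 TPM in morphants and 38.8, 56.8 and 46.8 TPM in control embryos. The sets kept the same order in both groups, and *foxd4l1.1* was higher in morphants in each. Its log2 fold change was 0.20 (SE 0.067, 95% interval 0.035 to 0.37, limma adjusted p = 0.106). After median scaling it was 0.30 (limma adjusted p = 0.0623), and without the set as a block the limma adjusted p was 0.793. The sister gene *foxd4l1.2* was listed at 0 in all control samples and at no more than 0.251 TPM in morphants. Little of the *foxd4l1* signal was thus assigned to *foxd4l1.2*.

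Expression of *gmnn* was 232.7, 302.0 and 308.1 TPM in morphants and 221.3, 310.1 and 294.4 TPM in control embryos. It was the only factor of the 8 without a common sign, higher in sets 1 and 3 and lower in set 2. The log2 fold change was 0.033 (SE 0.056, limma adjusted p = 0.707), and the 95% interval of -0.10 to 0.17 spans 0. After median scaling it was 0.13 (limma adjusted p = 0.210), and without the set as a block the limma adjusted p was 0.976. Across the 8 factors, 4 were lower and 3 higher in all 3 sets, beside 38.5% and 17.6% of all genes tested. In none of the 8 did the groups separate, while 11.3% of all genes had every morphant sample below every control sample and 3.71% every morphant sample above.

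**Figure D3:**
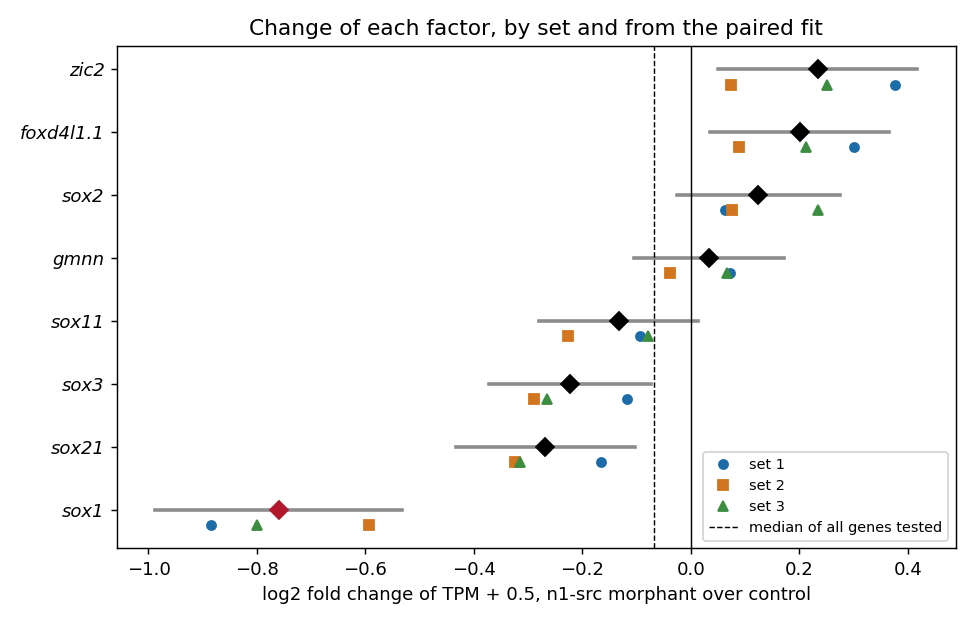
Log2 fold change of TPM + 0.5, n1-src morphants over control embryos (linear axis), for each factor. Diamonds are the paired fit (red where called, *sox1* alone) with its 95% interval as a grey bar, and the small symbols are sets 1 to 3. The dashed line marks the median of all genes tested, -0.068, and the factors run from *zic2* at 0.23 to *sox1* at -0.76.

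Since TPM is scaled by transcript length, levels can be compared between genes. In morphants the mean levels ran in the order *gmnn*, *sox2*, *sox3*, *sox11*, *zic2*, *foxd4l1.1*, *sox21* and *sox1*, from 280.9 to 6.68 TPM, a 42.1-fold range. In control embryos the order was the same from *sox11* down, but *sox3* came before *gmnn* and *sox2*, and the range was 26.0-fold. The top 3 genes overlapped in both groups and cannot be ranked. The ranges of *sox11* and *zic2* overlapped in morphants but not in control embryos, and those of *foxd4l1.1* and *sox21* in control embryos but not in morphants. Averaged over the 6 samples, *sox2*, *sox3* and *gmnn* lay at percentile 95.7 to 96.1 of the genes tested, and *sox1* near the middle, at percentile 46.4.

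Genes whose log2(TPM + 0.5) followed each SoxB1 gene most closely over the 6 samples were picked by Pearson r among 10882 tested genes with a symbol. For *sox1* these were *plekhg2*, *stk4* and *pcsk6* (r = 0.995, 0.995 and 0.993). Levels of *plekhg2* (1.15 to 1.70 TPM) and *pcsk6* (0.805 to 1.38 TPM) were near the filter of 1 TPM. Neither was called (limma adjusted p = 0.324 and 0.235). The gene of a Hippo pathway kinase, *stk4*, had a log2 fold change of -0.70 (SE 0.11, limma adjusted p = 0.0297). It was picked for following *sox1* over these same samples, which favours a fall in morphants, so this is no separate result. The closest genes for *sox2* were *mak16*, *sh3bp5l* and *cbfa2t2* (r = 0.993, 0.986 and 0.985). Those for *sox3* were the cell cycle kinase gene *cdk2*, *slc35c1* and *utp20* (r = 0.999, 0.998 and 0.998). An r of at least 0.95 was reached by 676 genes with *sox3*, 112 with *sox1* and 19 with *sox2*. All genes were read in the same 6 samples, which share sets, so with 6 points r is a description only. The genes nearest to *sox3* were, like it, highest in set 3 of both groups.

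Relatives of the factors were taken from lists. The counts of calls in these and the later lists stand beside 5.87% of all genes tested called lower and 2.62% called higher. After median scaling, 381 of the 13382 genes were called lower and 533 higher. The *zic2* relatives *zic4* and *zic5*, zinc finger factors of the same family, had log2 fold changes of 0.16 and 0.044 and did not pass (limma adjusted p = 0.235 and 0.729). The SoxC gene *sox4* was at 4.67 ± 0.709 TPM in morphants and 6.40 ± 1.99 TPM in control embryos (SD, n = 3 each, log2 fold change -0.39, limma adjusted p = 0.0850). Of 10 other Sox genes tested, 3 were called lower and 0 higher, with *sox10* and *sox8*, known from the neural crest, at -1.08 and -0.64 and *sox7*, known from the endothelium, at -0.57. After median scaling only *sox10* of these 3 was called.

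POU factors pair with SoxB1 proteins on DNA, and 7 were tested. The pluripotency-related *pou5f3.1* rose to 113.5, 171.9 and 179.9 TPM in morphants, against 61.8, 136.3 and 101.5 TPM in control embryos (log2 fold change 0.68, SE 0.11, limma adjusted p = 0.0321). The neural gene *pou3f1* fell to 14.2, 11.4 and 15.6 TPM, against 22.9, 16.1 and 27.3 TPM in control embryos (log2 fold change -0.65, SE 0.085, limma adjusted p = 0.0236). No other POU gene was called in this fit. The value of *pou5f3.2*, a relative of *pou5f3.1*, was 0.38 (limma adjusted p = 0.0604), and it was called higher after median scaling and after quantile normalization (limma adjusted p = 0.0408 and 0.0481). Among 12 genes listed for neural induction, mostly secreted antagonists of BMP, Wnt or Nodal signals, 3 were called lower and 0 higher. These 3 were the activin and BMP antagonist gene *fst* (-0.52), the Wnt antagonist gene *sfrp2* (-0.46) and the noggin relative *nog2* (-0.47). The 12 had 8 positive and 4 negative values, with a median of 0.073 beside -0.068 for all genes tested. After median scaling *fst* alone was called lower, and 1 gene was called higher, *bambi*, which encodes a membrane pseudoreceptor that is not secreted and is named here for that result.

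Geminin acts on replication licensing, and of 16 tested genes listed for it *mcm2*, a subunit of the replicative helicase, was the only call (log2 fold change -0.35, SE 0.060, limma adjusted p = 0.0325). It was not called after median scaling, when 0 of the 16 were. The helicase subunit gene *mcm4* and *cdt1*, whose product Geminin binds, had values of -0.34 and -0.30 and did not pass (limma adjusted p = 0.0536 and 0.0878). The median of the 16, which include *mcidas*, not itself a licensing gene, was -0.051, near that of all genes tested.

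Of 35 tested regional neural plate and progenitor genes, 7 were called lower and 1 higher (3 and 2 after median scaling), with a median of -0.17. The forebrain repressor gene *hesx1* rose to 130.2 ± 7.61 TPM in morphants, against 87.2 ± 6.83 TPM in control embryos (SD, n = 3 each, log2 fold change 0.58, limma adjusted p = 0.0159). In contrast *pax2*, a marker of the midbrain-hindbrain boundary, and *meis1*, a Hox cofactor gene, fell by 0.71 and 0.46 on the log2 scale. Of 32 proneural and neuronal differentiation genes, which act after SoxB1 in the neural lineage, 9 were called lower and 0 higher (6 and 0 after median scaling), with a median of -0.28. The smallest p-values were those of *tubb2b*, *neurod1* and *tubb3*. Summed over the list, these genes gave 559.3 to 628.4 TPM in morphants and 653.8 to 726.6 TPM in control embryos, with no overlap. A large part of that difference lay in *tubb2b* and in *dlc*, which was not called. Levels of *tubb2b* were 40.9 ± 4.95 TPM in morphants and 75.5 ± 9.46 TPM in control embryos (SD, n = 3 each). Those of *dlc* were 118.1 ± 15.7 TPM and 140.4 ± 6.44 TPM (SD, n = 3 each).

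**Figure D4:**
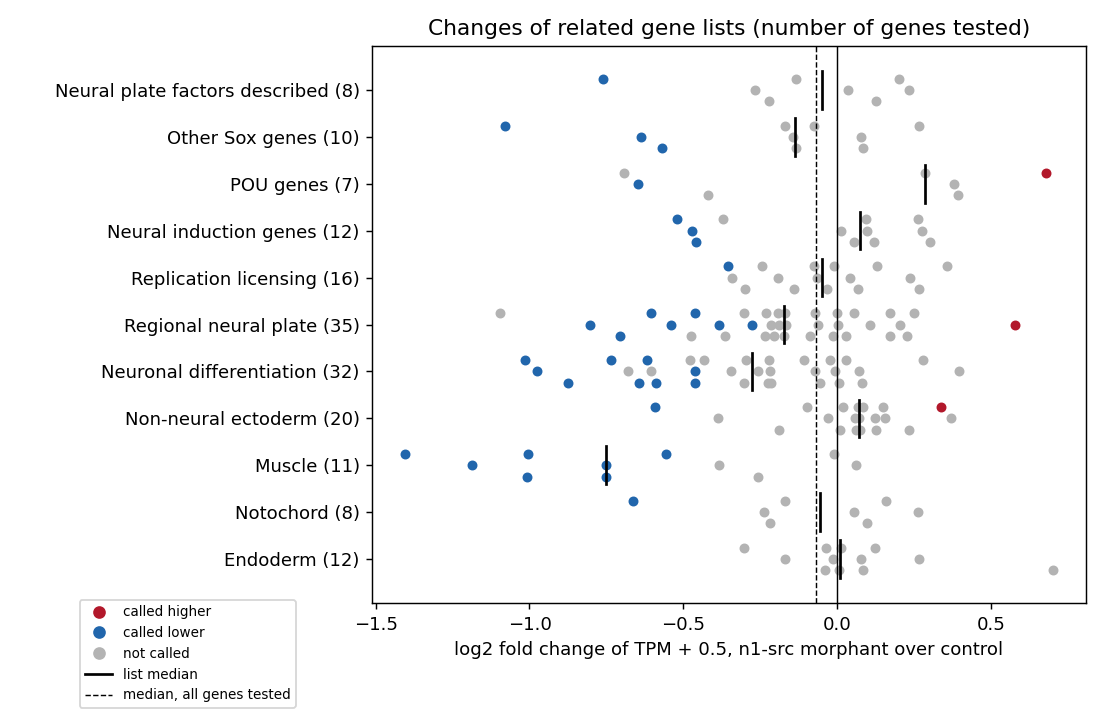
Log2 fold change of TPM + 0.5, n1-src morphants over control embryos (linear axis), for each tested gene of the lists shown, with the number of genes in brackets. Colours give the limma call, black bars the list medians and the dashed line the median of all genes. The 8 factors spread around 0 with *sox1* apart. Called lower were 7 of 11 muscle genes and 9 of 32 neuronal differentiation genes, against 5.87% of all genes tested.

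Markers of other tissues moved with the same comparison. Of 11 muscle markers 7 were called lower and 0 higher, with the smallest p-values for the troponin gene *tnnc1* and the actinin gene *actn3* (-1.01 and -1.19), and their summed level was 5102 to 6706 TPM in morphants and 6103 to 8501 TPM in control embryos. Of 8 notochord markers *col2a1*, a cartilage and notochord collagen gene, was called lower (-0.66). The 8 had 4 positive and 4 negative values, with a median of -0.058. Their sum was 462.5 to 495.8 TPM in morphants and 525.2 to 556.3 TPM in control embryos. Within that sum *col2a1* alone was at 103.5 ± 8.73 TPM in morphants and 164.5 ± 16.2 TPM in control embryos (SD, n = 3 each). Of 20 non-neural ectoderm markers *gata2* was called higher (0.34) and *krt12* lower (-0.59), while 15 had positive values. After median scaling *krt12* was not called and *ventx2.1*, a ventral homeobox gene, joined *gata2* as called higher. The sums were 9877 to 12975 TPM in morphants and 10571 to 15039 TPM in control embryos, although the list median was 0.069. A large part of these sums was the keratin gene *krt5.7*, which was not called. It was at 3441 ± 1134 TPM in morphants and 4703 ± 2283 TPM in control embryos (SD, n = 3 each). Of 12 endoderm markers limma called 0, with 1 lower and 1 higher at an unadjusted p under 0.05. At that p, limma gave 23.4% of all genes tested as lower and 9.76% as higher. The 32 neuronal differentiation genes gave 17 lower and 0 higher, and the 35 regional neural plate genes 13 and 5. Muscle markers gave 9 and 0 of 11, and notochord markers 3 and 0 of 8. The licensing list gave 5 and 0 of 16, other Sox genes 3 and 0 of 10, and POU genes 3 and 4 of 7. Genes of neural induction gave 4 lower and 1 higher of 12, and non-neural ectoderm markers 2 and 5 of 20. Without the set as a block, limma called 0 genes of any list. The part of these tissues in the value of *sox1* was not tested.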

How the data were processed

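The authors quantified Illumina reads with Salmon against the reference transcripts of *Xenopus tropicalis* and added them up by gene. They deposited TPM for 6 samples, and their group means, which were not used. A text of the series names *Xenopus laevis*, but the labels of all samples and the paper name *X. tropicalis*. TPM holds no read depth, so no counting error could be given and the spread between samples is the only error. The paper speaks of sets of injected embryos, but the labels do not say whether replicates came from separate clutches. The p-values therefore measure only the spread between these samples, which may not span clutches. How many embryos made up a sample is not given in the sources used here.

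Genes with a group mean of 1 TPM or more in either group were tested with limma 3.58.1 (R 4.3.3), using log2 of TPM plus 0.5, a variance trend, and replicate number as block (2 residual degrees of freedom), in place of the study's Sleuth. The fit was checked on data simulated from its own model, which checks the code and not whether the model suits these data. The pairing comes from the shared numbers and from the study's description of sibling embryos: same-numbered samples deviated together from their group means (r across genes 0.72, 0.61 and 0.73). Named genes are the listed factors, up to 3 genes of each list by adjusted p, the 3 closest patterns for each SoxB1 gene, *src* and *rpl8*; other genes are named where a count needed it, and a gene that the rule selects is not reported here. Factors, lists and rules were chosen with earlier results of these data known. In all, 12 alternatives were run, 1 of them (without LOC108645507 and LOC100335111) added after seeing the data. No coordinates are given, since the RefSeq table is of another build.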

Additional observations from a re-analysis of the deposited data

How the results depend on the processing

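All 8 factors kept the sign of their log2 fold change under all 12 alternatives, and 92 of the 96 values also kept their side of the threshold. In 3 exceptions *sox1* was not called, at -0.76 without a filter on low TPM, -0.76 without the replicate block and -0.74 without set 3. In the other, *sox3* was called, at -0.28 without set 1. With each set left out in turn, the values ran over -0.84 to -0.70 for *sox1* and -0.28 to -0.19 for *sox3*. The count of factors called lower was 0 without the filter and 0 without the replicate block, and 0 to 2 with a set left out. The block changed no other call among the factors.

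Counts over all genes moved more. From 786 lower and 350 higher (30.8% of calls higher), they went to 381 and 533 with median scaling (58.3% higher), to 402 lower with quantile normalization (48.9% higher), to 368 and 126 without the variance trend, and to 63 to 714 lower and 44 to 472 higher with a set left out. The low ends were without set 3, and without set 2 the counts were 198 and 85. Without the filter limma called 0 and 0 (4975 genes at an unadjusted p under 0.05), and without the replicate block 1 and 0 (1124 at an unadjusted p under 0.05). The cause was not tested. The median of all genes was 0.029 after median scaling.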
